A study of Mus musculus with 2 samples.

Results

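The genes described here were 7 members of the chemokine system that guide dendritic cells (DCs) and T cells through tissue, namely the ligands *Ccl17*, *Ccl22*, *Ccl19* and *Ccl21a* and the receptors *Ccr4*, *Ccr7* and *Ccr8*. They were chosen by gene symbol, and all 7 were present among the 32589 genes listed for each library. Chemokines are small secreted proteins that attract leukocytes carrying a matching receptor. CCL17 and CCL22 are the ligands of CCR4, a receptor of regulatory T cells (Tregs) and of other CD4 T cells that have met antigen, and mature DCs are a known source of both. CCL19 and CCL21 are the ligands of CCR7, by which mature DCs enter lymphatic vessels and naive and central memory lymphocytes enter lymph nodes, whereas CCR8 is known from Tregs in tumors and skin.

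The series compared single cells of tumor-bearing mouse liver with and without checkpoint blockade, 1 library per group. Both groups were shYT animals, in which a CAG-rtTA3 transgene lets doxycycline turn on hairpins that target YAP and TAZ transcripts throughout the body. Cholangiocarcinoma (CCA) was induced by hydrodynamic tail vein injection, which brings plasmids for the activated notch receptor NICD and for myr-AKT into hepatocytes. Doxycycline was given from day 25, and the tumors were analyzed on day 33. The shYT PBS group received PBS, and the shYT anti–PD-1 group received the antibody clone RMP1-14 on days 26, 29 and 32. Because both groups carried the knockdown, no effect of YAP/TAZ depletion on these genes was compared. The labels give no sex, number of animals or shRNA line. The study describes several animals per group, so a library may pool animals, but cells could not be assigned to them and each library was 1 sample. No replicate and no test were available, and the intervals below cover counting error only.

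Each library was read with the GEXSCOPE kit, which tags every captured transcript with a unique molecular identifier (UMI). The PBS library held 19397 barcodes and the anti–PD-1 library 19451, and 15531 (80.1%) and 16360 (84.1%) passed limits of 500 to 5000 genes and 10% of UMIs from mitochondrial genes. The median kept cell had 3159 and 2990 UMIs. Of the barcode strings, 219 occurred in both libraries, 1.13% of each, and 145 of them were kept in both. The libraries also differed in sex make-up, with 18452 *Xist* UMIs under PBS and 11 under anti–PD-1, against 3113 and 15323 UMIs from the Y chromosome. Effects of sex and of treatment cannot be told apart over whole libraries. Several results are also given for XY-marked cells, meaning cells in which a Y-linked gene but not *Xist* was seen. *Xist* can be missed in a shallow cell, and the animals behind these cells are not known. The mark therefore does not separate sex from treatment.

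Levels are given as a gene's UMIs over all UMIs of a class, scaled to counts per 1000000 (CPM), with an exact 95% Poisson interval in parentheses. Ratios are log2 of anti–PD-1 over PBS with an exact conditional 95% interval, and a gene counted as higher or lower only past 2-fold in a class where both libraries together held at least 20 of its UMIs. Cells were sorted into 18 classes by marker genes that contain none of the 7 genes. A class name below stands for cells with the markers of that class, for example a mature DC-like cell, and the suffix is left out. Genes outside the gate fitted the names in the PBS library, with *Relb* at 800.0 CPM in mature DCs against 40.2 in all other cells, *Thy1* at 763 against 41.1 for T cells and *Pdgfra* at 155 against 1.08 for cancer-associated fibroblasts (CAFs). The gate left 9.29% of PBS cells and 11.9% of anti–PD-1 cells without a class.

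Over all kept cells, *Ccr7* was the single member past 2-fold, at 34.4 CPM (33.2–35.8) with PBS and 171 (168–174) with anti–PD-1. That was 1 of 7 members, while 5.04% of all measured genes were over 2-fold higher in the same comparison. *Ccl22* was at 6.68 and 10.4 CPM (log2 ratio 0.64, 0.48 to 0.80), while *Ccl17* was at 22.0 and 14.2 (−0.63, −0.74 to −0.52) and *Ccl21a* at 21.0 and 10.8 (−0.95, −1.08 to −0.83). *Ccl19* was at 5.39 and 4.20 CPM (−0.36), *Ccr4* at 1.85 and 2.32 (0.33), and *Ccr8* at 2.05 and 2.30 (0.17, −0.14 to 0.49). In sums over a library, fewer cells of a class and less RNA of a gene per cell cannot be told apart. With each class held at its PBS share of all UMIs, the log2 ratios became 1.70 for *Ccr7*, 0.47 for *Ccl22*, −0.31 for *Ccl17* and 2.40 for *Ccl21a*. Among the 1481 and 7861 XY-marked cells, *Ccl22* (2.43, from 18 and 556 UMIs) and *Ccl21a* (2.20, from 20 and 527 UMIs) were also past 2-fold, beside *Ccr7* (2.16), and *Ccl17* was at 0.07. At PBS shares *Ccl21a* changed sign, and lymphatic endothelial cells, its source, numbered 28 under PBS and 5 under anti–PD-1. Signs at PBS shares also changed for *Ccl19* (0.45), *Ccr4* (−0.20) and *Ccr8* (−0.41), which came mostly from CAFs and T cells.

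**Figure D1:**
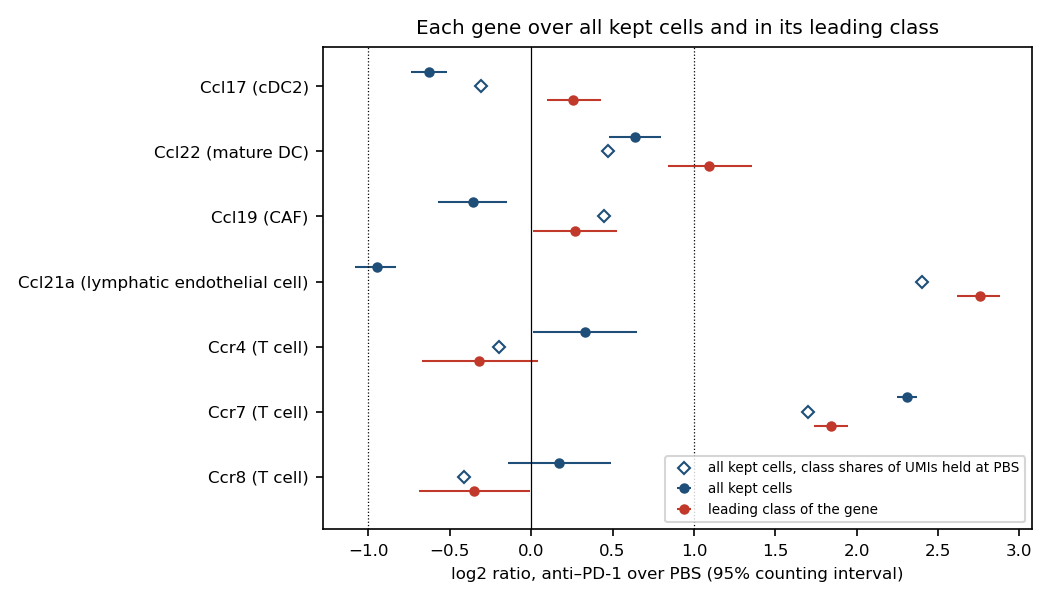
Log2 ratio of anti–PD-1 over PBS for each gene (x axis) over all kept cells (blue), in the class that held most of its UMIs (red, class named on the y axis) and over all cells with class shares held at PBS (open diamonds). Lines are 95% counting intervals and dotted lines mark 2-fold, which *Ccr7* passed both over all cells (2.31) and in T cells (1.84), while *Ccl21a* changed sign between all cells (−0.95) and lymphatic endothelial cells (2.76).

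The CCR4 ligands *Ccl17* and *Ccl22* lie near each other on the genome. *Ccl22* (ENSMUSG00000031779) is at chr8:94745590-94751699 and *Ccl17* (ENSMUSG00000031780) at chr8:94810453-94812036 of GRCm38, both on the forward strand with 58753 bases between them. *Ccl17* is a known target of the IL-4 pathway through STAT6, a factor that reads TTC and GAA with 4 bases of any kind between them. The 250 bases before the *Ccl17* start are shown for that reason, from RefSeq on GRCm38.p6 (chr8:94810203-94810452, forward strand), with the match to that spacing in capitals.

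*Ccl17* upstream: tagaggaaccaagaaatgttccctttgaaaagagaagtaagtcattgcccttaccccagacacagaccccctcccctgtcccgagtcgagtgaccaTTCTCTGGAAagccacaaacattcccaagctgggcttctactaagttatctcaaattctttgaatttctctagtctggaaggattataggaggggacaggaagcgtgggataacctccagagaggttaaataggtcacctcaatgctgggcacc

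The capitals begin 154 bases before the start. The same TTC and GAA spacing, on either strand, occurred in 6.95% of the 32851 promoter windows of 250 bases before to 50 after a start, and in *Ccl17* alone among the 6 members with a window (*Ccr7* had no entry). The spacing with 3 bases between TTC and GAA occurred in 8.30% of windows and, again among these 6, in *Ccl17* alone, 99 bases before its start. GGG and TTCC with 3 bases between them, a core of NF-κB sites, occurred in 5.56% of windows and in none of the 6. The matches in *Ccl17* did not overlap each other. They describe letters in a window, and no binding was measured.

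*Ccl17* was a transcript of few cells. It was detected in 250 PBS cells and 235 anti–PD-1 cells, and the 10% of those cells with most UMIs held 57.2% and 68.6% of all its UMIs. Conventional type 2 DCs (cDC2s), which present antigen to CD4 T cells, were its leading class with 44.3% of its UMIs over both libraries. The remaining UMIs came from type 1 DCs (cDC1s, 11.3%), monocytes and macrophages (9.39%), mature DCs (6.64%) and cells without a class (16.9%). Plasmacytoid DCs had 0 UMIs in 85 and 65 cells, which allows a share of cells with a UMI of up to 3.53% and 4.62%.

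In cDC2s, *Ccl17* had 755 UMIs under PBS (296 cells) and 506 under anti–PD-1 (143 cells), which made 348 CPM (324–374) and 418 (382–456). The log2 ratio was 0.26 (0.10 to 0.43), and it was −0.06 without the richest cell of each library, −0.16 after thinning every cell to 1000 UMIs and 0.56 among XY-marked cells. The sign of this small difference therefore rested on single cells. The richest anti–PD-1 cDC2 held 143 UMIs, 28.3% of the class, and the richest PBS cDC2 held 75. Without cells that passed the gate for 2 classes, cDC2s held 376 *Ccl17* UMIs with PBS and 345 with anti–PD-1. *Ccl17* was detected in 23.6% of PBS cDC2s (18.9–28.9%, exact binomial) and in 15.4% of anti–PD-1 cDC2s (9.90–22.4%). After thinning the shares were 12.2% and 7.04%, with 1 shallow cell left out in each group.

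The order of *Ccl17* levels among DCs differed between the libraries, although the PBS rank of cDC1s over mature DCs rested on 1 rich cell. With PBS it was cDC2s, then cDC1s at 295 CPM (258–335), then mature DCs at 246 (191–312), and the intervals of neighbours in this order overlapped. With anti–PD-1 the mature DCs at 353 CPM (293–422) came after the cDC2s with overlapping intervals, and the cDC1s were lowest at 83.2 (67.2–102). There 1 cDC1 held 49 of 94 UMIs. The thinned shares of positive cells overlapped, at 3.64% (1.00–9.05%) in cDC1s and 7.04% (3.43–12.6%) in cDC2s. In mature DCs the log2 ratio was 0.52 (0.08 to 0.97), −0.34 when the best class of a cell needed no lead over the next and 1.98 (0.39 to 4.28, from 3 and 100 UMIs) among the 7 and 36 XY-marked cells. In cDC1s it was −1.82 (−2.19 to −1.47) on 8 positive PBS cells and 10 positive anti–PD-1 cells, and 1 PBS cell held 118 of 228 UMIs. Without the richest cells the cDC1 ratio was −1.84, with a stricter gate it was −3.07, and after thinning it was −0.74 (−1.63 to 0.12), under 2-fold and with an interval that held 0.

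Outside DCs, *Ccl17* was low. It was at 5.37 and 3.98 CPM in monocytes and macrophages and at 6.03 (3.63–9.41) and 10.5 (8.12–13.3) in Kupffer cells, the resident macrophages of liver. In CAFs 37 UMIs in 18 cells faced 1 UMI, a ratio of −3.95 (−9.29 to −1.39), against 5.48% of measured genes over 2-fold lower in CAFs, and 27 of the 37 were in CAFs that also held *Ccl19*. In PBS endothelial cells all 85 UMIs came from 1 cell.

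The leading class of *Ccl22* was another one. Mature DCs, which have taken up antigen and turned on migration genes, held 32.6% of its UMIs with PBS and 56.6% with anti–PD-1, from 64 and 53 cells. Over both libraries, cDC2s held 10.6%, cDC1s 10.04% and monocytes and macrophages 9.37%, while CAFs, endothelial cells and lymphatic endothelial cells together had 2 UMIs.

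In mature DCs, *Ccl22* was at 623 CPM (533–723) with PBS and 1329 (1210–1457) with anti–PD-1, a log2 ratio of 1.09 (0.84 to 1.36). The cells with the transcript were 30 of 64 (46.9%, 34.3–59.8%) and 35 of 53 (66.04%, 51.7–78.5%), and the positive cells had a median of 4 UMIs in each library. The groups thus differed in their rich cells more than in the typical positive cell. The richest cell held 17 UMIs with PBS and 92 with anti–PD-1, and without it the ratio was 0.95, just under 2-fold. Thinning gave 0.84, leaving out cells that passed the gate for 2 classes gave 0.68, and XY-marked cells gave 2.02.

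The other DC classes gave other ratios. In cDC2s *Ccl22* was at 40.6 CPM (32.5–49.99) and 44.6 (33.5–58.2), a ratio of 0.14 (−0.38 to 0.64) that depended on the setting. It was 1.34 (0.66 to 2.02) with a stricter gate, 0.74 (0.12 to 1.36) without cells that passed for 2 classes, 2.03 (0.40 to 4.35, from 3 and 50 UMIs) among XY-marked cells and −0.32 (−1.02 to 0.34) without the richest cells. In cDC1s it was at 110 CPM (87.7–136) and 43.4 (32.1–57.4), a ratio of −1.34 (−1.88 to −0.82), with 60.0% of the PBS UMIs in 1 cell and a ratio of −0.37 after thinning. With anti–PD-1, cDC1s and cDC2s could not be ordered beyond their intervals. In cDC1s 2 of 4 measured members, *Ccl17* and *Ccl22*, were over 2-fold lower, against 6.04% of measured genes. *Ccl19* was over 2-fold higher, against 6.97% of measured genes, but this rested on 0 UMIs with PBS and on 30 UMIs of a single anti–PD-1 cell.

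The ligands shared some of their DCs, with both seen in 20.3% and 22.6% of mature DCs and in 5.41% and 6.99% of cDC2s. Among PBS mature DCs with *Ccl17*, 13 of 18 (72.2%) also held *Ccl22*, against 17 of 46 (37.0%) without it, and among anti–PD-1 mature DCs the counts were 12 of 13 (92.3%) and 23 of 40 (57.5%). In cDC2s the shares with *Ccl22* were 22.9% (13.7–34.4%) and 4.87% (2.45–8.54%) with PBS, and 45.5% (24.4–67.8%) and 1.65% (0.201–5.84%) with anti–PD-1. After thinning the mature DC counts were 4 of 9 (44.4%, 13.7–78.8%) against 13 of 54 (24.1%, 13.5–37.6%) with PBS and 7 of 9 (77.8%, 40.0–97.2%) against 14 of 42 (33.3%, 19.6–49.6%) with anti–PD-1, and all of these intervals overlapped within a library. After thinning the PBS cDC2 shares were 11.1% (3.11–26.1%) and 1.16% (0.24–3.35%), with intervals that overlapped. With anti–PD-1 they were 40.0% (12.2–73.8%) and 0.758% (0.019–4.15%), and each library had 4 cells with both. Cells deeper in UMIs show more of any gene, so the thinned shares are the ones that can be read across cells.

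**Figure D2:**
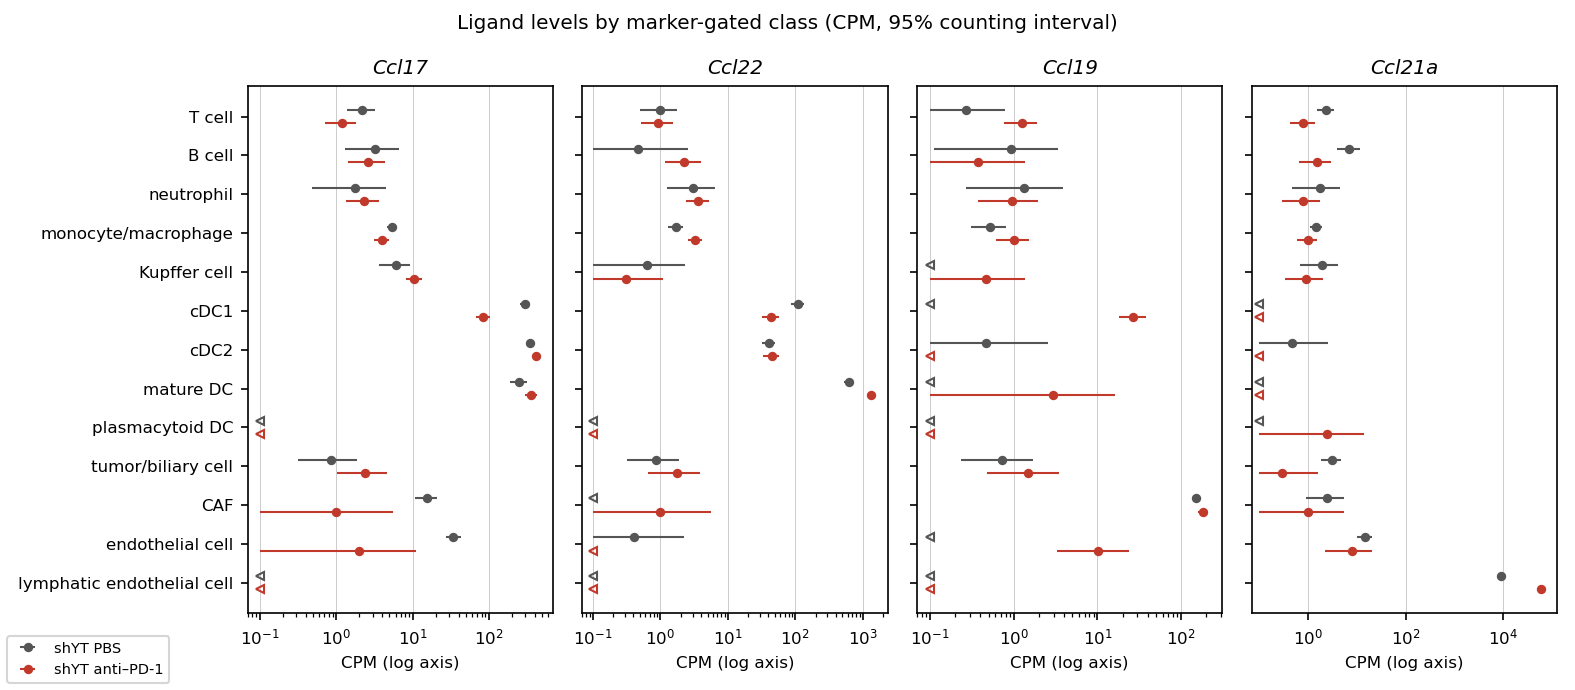
CPM of the 4 ligands (x axes, log scale) in 13 of the gated classes (y axis) for shYT PBS (gray) and shYT anti–PD-1 (red), with 95% counting intervals. Open triangles mark 0 UMIs, and intervals that reach below 0.1 CPM are cut there. *Ccl17* spans the 3 DC classes, *Ccl22* peaks in mature DCs (623 and 1329 CPM), *Ccl19* in CAFs (151 and 183 CPM) and *Ccl21a* in lymphatic endothelial cells.

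The CCR7 ligands came from stroma. *Ccl19* (ENSMUSG00000071005, chr4:42754525-42756577) and *Ccl21a* (ENSMUSG00000094686, chr4:42772860-42773993) lie on the reverse strand of GRCm38 with 16282 bases between these entries, in a region with near-identical copies. The other entries named *Ccl19* or *Ccl21a*, 3 entries of *Ccl21b* and 1 of *Ccl21c* had 0 UMIs over all barcodes of both libraries. How the authors' counting assigned reads shared by such copies is not stated, so the *Ccl19* and *Ccl21a* values may include reads of their copies.

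*Ccl19* was a CAF transcript, with 85.5% of its UMIs in CAFs under PBS and 56.4% under anti–PD-1, where cells without a class held 14.7% and 1 cDC1 held 9.20%. CAFs held 364 UMIs under PBS (454 cells) and 184 under anti–PD-1 (194 cells), which made 151 CPM (136–168) and 183 (158–211), a log2 ratio of 0.27 (0.01 to 0.53). This difference was no firmer than that of *Ccl17* in cDC2s. One anti–PD-1 CAF held 67 UMIs, 36.4% of the class, and without the richest cell of each library the ratio was −0.24. Thinning gave −0.49, XY-marked cells gave −0.18, and no upper limit on detected genes gave 0.87.

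The CAFs with *Ccl19* were a minority, 107 of 454 (23.6%, 19.7–27.8%) with PBS and 37 of 194 (19.1%, 13.8–25.3%) with anti–PD-1, and after thinning they were 10.99% and 9.15%. They were deeper than the other CAFs, with medians of 8106 against 2346 UMIs and 8494 against 1784. *Cxcl12*, the chemokine that retains CXCR4-bearing leukocytes, was at 836 CPM (779–896) in *Ccl19*+ against 410 (378–445) in other PBS CAFs. With anti–PD-1 the *Cxcl12* levels were 871 (774–976) and 372 (327–421). *Pdpn*, a stromal surface glycoprotein, went the other way, at 22.0 against 49.8 CPM with PBS and 47.5 against 120 with anti–PD-1. *Cxcl13*, which draws B cells, showed no such order, at 2.09 CPM against 549 with PBS and 398 against 98.6 with anti–PD-1. *Ltbr*, the lymphotoxin receptor through which stromal cells are told to make these chemokines, was at 85.8 (68.3–106) against 83.6 (69.4–99.9) CPM with PBS. These genes were chosen after their values were seen. *Ackr2* and *Ackr4*, whose receptors scavenge chemokines (CCL19 and CCL21 for ACKR4), were both over 2-fold higher in CAFs, at 2.91 and 16.9 CPM and at 15.0 and 62.7, and so was *Ccr7* (8.74 and 32.8), against 5.51% of measured genes. Endothelial cells went the other way, with both scavenging receptor genes lower and 1 past 2-fold (8.97% of measured genes). In B cells the 1 measured was over 2-fold lower (7.79%). T cells held little *Ccl19*, with 3 UMIs and 20 UMIs (0.273 and 1.24 CPM, ratio 2.19, 0.43 to 4.58), and cDC1s had 0 UMIs with PBS and 30 in 1 anti–PD-1 cell. Mature DCs, a known source of *Ccl19* in lymphoid tissue, held 0 UMIs in 64 cells and 1 in 53.

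*Ccl21a*, the ligand that lymphatic vessels display to incoming DCs, came from very few cells. Lymphatic endothelial cells held 82.6% of its UMIs, with 1291 under PBS (28 cells) and 778 under anti–PD-1 (5 cells), which made 9003 CPM (8518–9508) and 60780 (56580–65210). The positive cells were 16 of 28 (57.1%, 37.2–75.5%) and 5 of 5 (100%, 47.8–100%), with single cells of up to 363 and 390 UMIs. All 5 anti–PD-1 cells were strongly positive, with a median of 96 UMIs, whereas the median PBS cell held 4.5. Of the cells in this class, 26 of 28 and 5 of 5 also passed the gate for another class. *Lyve1*, which liver sinusoids share with lymphatics, was at 6555 and 2656 CPM. Whether the class held other cells was not tested, and a second pass alone does not show it. The log2 ratio of 2.76 (2.62 to 2.88) compared 5 cells with 28 of uneven *Ccl21a* content, and over all cells the ratio had the other sign. Another 203 PBS UMIs were in cells without a class, 16 of them positive, and when the best class needed no lead the ratio was 2.26 on 34 and 6 cells.

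Outside lymphatics, *Ccl21a* was at 2.36 CPM (1.54–3.46) and 0.807 (0.430–1.38) in T cells, a ratio of −1.55 (−2.63 to −0.54), and at 7.01 and 1.51 in B cells (−2.22, −3.66 to −0.89). CAFs held 6 UMIs and 1 UMI. These low levels moved with the total of the gene in each library, and whether they are cell-free RNA was not tested.

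The receptors were read in lymphocytes and DCs. *Ccr4* (ENSMUSG00000047898, chr9:114490316-114504916, reverse strand) and *Ccr8* (ENSMUSG00000042262, chr9:120092114-120094906, forward strand) were T cell transcripts, with 83.4% and 85.0% of their UMIs in T cells. Neither was seen in mature DCs, the leading class of *Ccl22*, at 0 UMIs in 64 and 53 cells, which allows a share of cells with a UMI of up to 4.69% and 5.66% and sets no limit on cells that express the genes below that depth. Both were sparse, with a median of 1 UMI in positive Foxp3+ cells, and no cell held more than 3 UMIs of *Ccr4* or 5 of *Ccr8*.

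Over all T cells, *Ccr4* had 125 UMIs under PBS and 147 under anti–PD-1, which made 11.4 CPM (9.46–13.5) and 9.12 (7.71–10.7). *Ccr8* had 135 and 155 UMIs, 12.3 CPM (10.3–14.5) and 9.62 (8.17–11.3). The log2 ratios were −0.32 (−0.67 to 0.04) and −0.35 (−0.69 to −0.01), and the first interval included 0 while the second ended just below it. For *Ccr4*, thinning left 30 and 16 UMIs and a ratio of −1.03.

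Both receptors were most frequent in Tregs, here T cells with a *Foxp3* UMI. *Ccr8* was at 33.0 CPM (23.5–45.1) in the 259 Tregs of the PBS group and at 38.2 (29.2–49.1) in the 288 of the anti–PD-1 group, and *Ccr4* was at 27.1 (18.5–38.2) and 30.1 (22.2–39.9). In CD4 T cells without *Foxp3* UMIs, *Ccr8* was at 22.5 (17.0–29.1) and 16.3 (12.3–21.2), and *Ccr4* at 15.4 (10.9–21.0) and 12.0 (8.58–16.2). Treg and CD4 intervals overlapped with PBS and separated with anti–PD-1 for both genes, although that change was not tested. CD8 T cells had 8 and 13 UMIs of *Ccr8* and 2 and 5 of *Ccr4*, and the gamma-delta T cells had 0 of *Ccr8*. Within Tregs the ratio of anti–PD-1 over PBS was 0.21 (−0.39 to 0.83) for *Ccr8* and 0.15 (−0.52 to 0.85) for *Ccr4*, and among 25 and 177 XY-marked Tregs it was −0.56 and −0.66.

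*Ccr8* was in 12.4% (8.61–17.0%) of PBS Tregs against 2.60% (2.06–3.22%) of T cells without *Foxp3*, and in 14.9% (11.02–19.6%) against 2.15% (1.68–2.70%) with anti–PD-1. *Ccr4* showed the same order, at 8.88% against 2.60% and 13.9% against 2.45%. Most T cells with either receptor still lacked a *Foxp3* UMI. It was seen in 32 of 112 and 43 of 115 T cells with *Ccr8*, and in 23 of 103 and 40 of 122 with *Ccr4*. Thinning left 144 and 115 T cells with a *Foxp3* UMI, and *Ccr8* was in 2.78% of them (0.762–6.96%) against 0.889% of the rest (0.592–1.28%) with PBS. With anti–PD-1 it was in 2.61% (0.541–7.44%) against 0.836% (0.560–1.20%). The *Ccr8* intervals overlapped in both libraries, so its order could not be read at this depth. For *Ccr4* the thinned shares were 3.47% (1.14–7.92%) against 0.730% (0.464–1.09%) with PBS, and 2.61% (0.541–7.44%) against 0.375% (0.200–0.640%) with anti–PD-1, where the intervals overlapped. The receptors were nevertheless mostly in different cells. Of the Tregs with *Ccr4*, 2 of 23 (8.70%) and 6 of 40 (15.0%) also held *Ccr8*, against 12.7% and 14.9% of the Tregs without *Ccr4*. At 1 UMI per positive cell most cells with both would be missed, so no exclusion can be read from this.

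**Figure D3:**
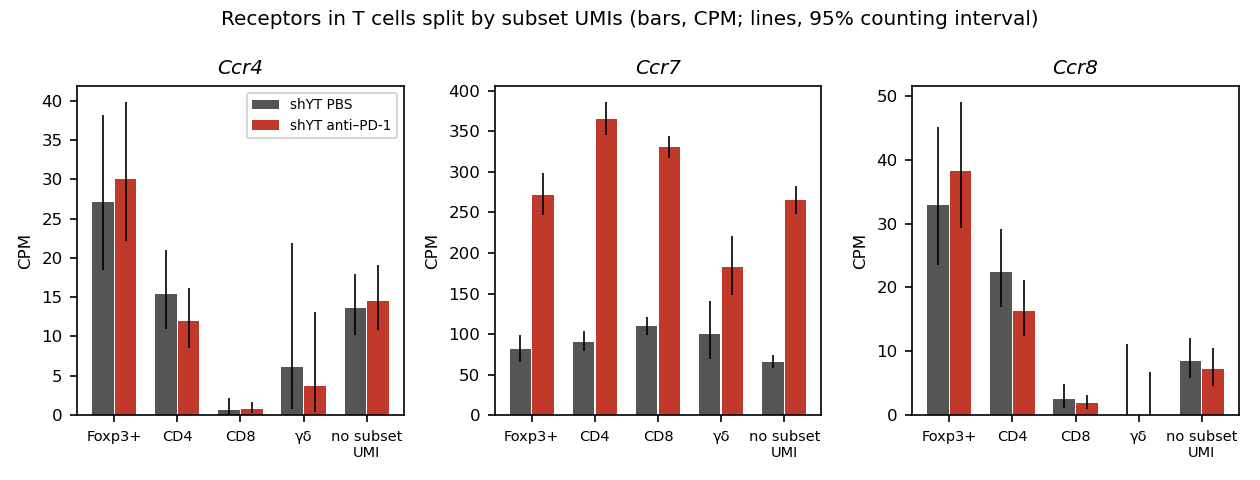
CPM of *Ccr4*, *Ccr7* and *Ccr8* (y axes) in T cells split by UMIs of *Foxp3*, *Cd4*, *Cd8a* or *Cd8b1* and *Trdc* (x axis) for shYT PBS (gray bars) and shYT anti–PD-1 (red bars), with 95% counting intervals. *Ccr4* and *Ccr8* stand highest in Foxp3+ cells in both libraries, and *Ccr7* is higher with anti–PD-1 in all 5 subsets.

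*Ccr7* (ENSMUSG00000037944, chr11:99144196-99155077, reverse strand) had the largest ratio of the 7 genes over all kept cells. Mature DCs had its highest level, 2219 CPM (2047–2402) with PBS and 4478 (4257–4708) with anti–PD-1, and it was detected in 56 of 64 (87.5%) and 49 of 53 (92.5%) of them. The median mature DC held 5.5 UMIs with PBS and 26 with anti–PD-1, with quartiles of 2.75 and 13.5, and of 4 and 44. The log2 ratio was 1.01 (0.88 to 1.15), only just past 2-fold, and 0.85 after thinning, 1.04 without the richest cells and 0.71 among XY-marked cells. In mature DCs 2 of 3 measured members, *Ccr7* and *Ccl22*, were over 2-fold higher, against 6.64% of measured genes. Every *Ccl22*+ mature DC also held *Ccr7*, 30 of 30 (88.4–100%) with PBS and 35 of 35 (90.0–100%) with anti–PD-1, against 76.5% and 77.8% of those without *Ccl22*. After thinning this was 64.7% against 69.6% with PBS and 95.2% against 73.3% with anti–PD-1, with intervals that overlapped in both libraries (38.3–85.8% and 54.2–82.3%, then 76.2–99.9% and 54.1–87.7%).

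In cDC2s *Ccr7* went from 32 UMIs in 15 cells to 170 in 39 cells, 14.8 CPM (10.1–20.8) and 140 (120–163), a log2 ratio of 3.25 (2.70 to 3.84). Without the richest cells the ratio was 2.98, thinned it was 3.86, and with a stricter gate it was 4.72 (12 and 146 UMIs). Among XY-marked cDC2s it was 5.15 (2.65 to 10.46), with 1 UMI under PBS and 145 under anti–PD-1. It was the single one of 3 measured members past 2-fold in cDC2s, against 3.80% of measured genes. With anti–PD-1, 9 of 22 *Ccl17*+ cDC2s held *Ccr7* (40.9%, 20.7–63.7%) and 30 of 121 others (24.8%, 17.4–33.5%), intervals that overlapped. In cDC1s *Ccr7* was at 12.9 CPM (6.20–23.8) and 21.2 (13.6–31.6), a ratio of 0.72 (−0.40 to 1.95). Plasmacytoid DCs held 6 and 49 UMIs of *Ccr7*, their 1 measured member, which was also over 2-fold higher, against 5.76% of measured genes.

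T cells held the most *Ccr7* UMIs, 37.5% over both libraries, with 959 under PBS (492 of 3339 cells positive) and 5044 under anti–PD-1 (1265 of 3641). The level was 87.2 CPM (81.8–92.9) and 313 (304–322), a log2 ratio of 1.84 (1.74 to 1.95), and the share of positive cells was 14.7% (13.6–16.0%) and 34.7% (33.2–36.3%). After thinning the shares were 7.23% and 20.1%. The same direction was found in every T cell subset. The CD4 T cells were at 90.6 and 366 CPM (ratio 2.01), CD8 T cells at 110 and 331 (1.59), Tregs at 81.2 and 272 (1.74, 1.42 to 2.08) and gamma-delta T cells at 100.1 and 182 (0.86, 0.28 to 1.48). In T cells all 7 members were measured, and *Ccr7* and *Ccl19* were over 2-fold higher (background 3.55%) and *Ccl21a* was over 2-fold lower (background 8.83%). The *Ccl19* call rested on 3 and 20 UMIs and that of *Ccl21a* on 26 and 13, and cell-free RNA was not tested. In Tregs *Ccr7* was the single one of 3 measured members past 2-fold, against 4.83% of measured genes.

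B cells showed the same shift, with *Ccr7* at 283 CPM (261–306) under PBS (1000 cells) and 827 (803–852) under anti–PD-1 (1731 cells), a log2 ratio of 1.55 (1.43 to 1.67). The share of positive B cells was 32.1% (29.2–35.1%) and 74.8% (72.7–76.8%), and 23.8% and 50.3% after thinning. In B cells 3.98% of measured genes were over 2-fold higher. Among XY-marked cells the *Ccr7* ratio was 1.37 in B cells, 2.55 in T cells and 2.16 over all cells, over 2-fold in each. Within T cells it was 2.59 in CD4 T cells, 2.54 in CD8 T cells and 3.58 (1.72 to 6.63) in Tregs, the last from 2 and 303 UMIs.

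*Ccr7* was also higher in tumor cells and in myeloid cells other than DCs. It was at 2.46 CPM (1.44–3.94) and 45.4 (38.5–53.1) in tumor and biliary cells, at 4.16 and 18.7 in monocytes and macrophages, at 3.49 and 18.9 in Kupffer cells and at 22.0 and 55.5 in neutrophils. Per 1000 UMIs of 8 T and B cell marker genes, *Ccr7* over all cells was at 36.9 with PBS and 114 with anti–PD-1. Macrophages were at 33.9 and 121, Kupffer cells at 36.4 and 123, tumor cells at 22.4 and 204, CAFs at 52.9 and 180.3 and neutrophils at 104 and 131. Among DCs, cDC1s were at 312 and 189, cDC2s at 248 and 1024 and mature DCs at 8397 and 15840. The part of cell-free RNA in the *Ccr7* levels was not tested.

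**Figure D4:**
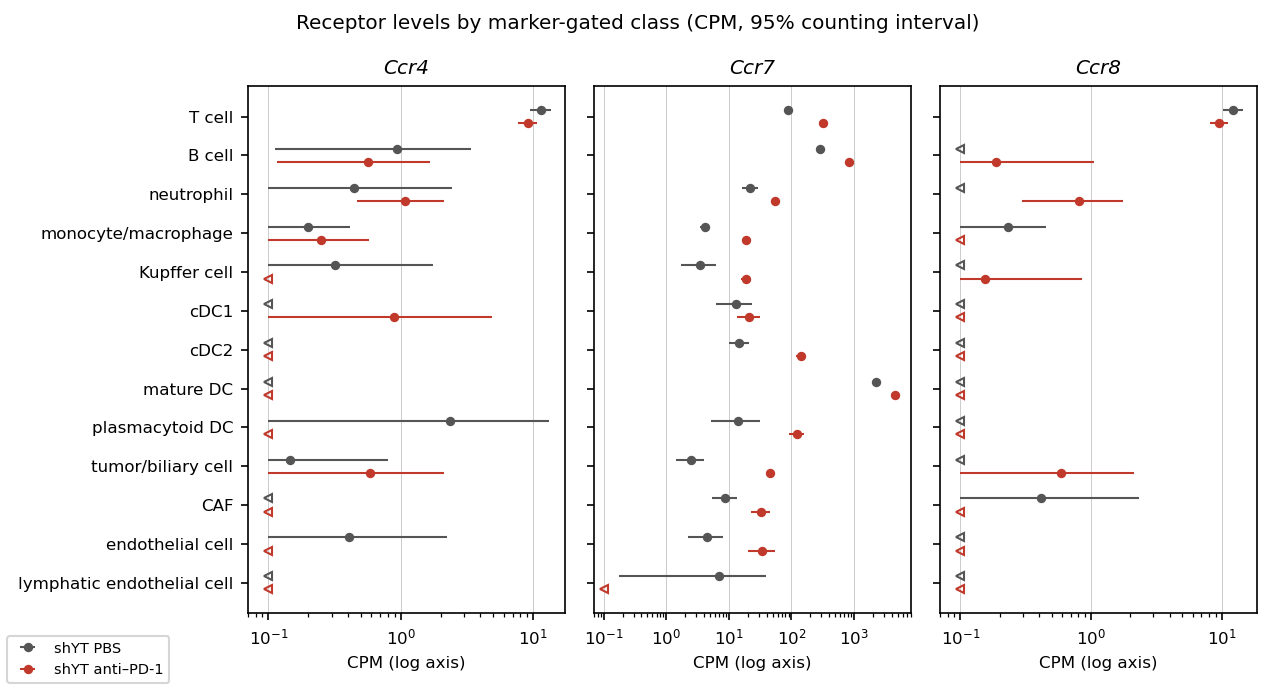
CPM of the 3 receptors (x axes, log scale) in 13 gated classes (y axis) for shYT PBS (gray) and shYT anti–PD-1 (red), with 95% counting intervals and open triangles at 0 UMIs. Intervals that reach below 0.1 CPM are cut there. *Ccr4* and *Ccr8* stand out in T cells, and *Ccr7* lies to the right with anti–PD-1 in all classes shown but lymphatic endothelial cells.

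Genes that keep lymphocytes circulating were read beside *Ccr7*. Over all T cells none of the 9 listed genes was past 2-fold, with 7 higher and 2 lower. The median log2 ratio was 0.11 against −0.20 over all measured genes. *Klf2*, the factor that keeps T cells quiescent and in circulation, was at 373 and 652 CPM (0.81, 0.76 to 0.86), and *S1pr1*, the exit receptor of lymph nodes, at 63.4 and 106 (0.75). *Il7r* was at 614 and 395 (−0.64), *Lef1* at 185 and 186 (0.01) and *Tcf7* at 276 and 251 (−0.13). Within CD4 T cells 2 of the 9 were over 2-fold higher (4.24% of measured genes), with a median of 0.38 against −0.17. Tregs also had 2 of 9 over 2-fold higher (4.83%), with a median of 0.26 against −0.09. In CD8 T cells 0 of 9 were past 2-fold, with a median of −0.08 against −0.13.

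Early response and heat shock genes, which respond to handling as well as to stimulation, were mostly higher in the same comparison. All 14 were higher in T cells, 5 of them past 2-fold (3.55% of all measured genes), with a median log2 ratio of 0.64 against −0.20 over all measured genes. In B cells 13 of 14 were higher and 4 past 2-fold (3.98%), with a median of 0.47 against −0.17. In mature DCs 7 of 13 were past 2-fold (6.64%), with a median of 1.02 against −0.07, and in cDC2s 5 of 14 (3.80%), with a median of 0.71 against −0.21. *Nr4a1*, an early gene of antigen receptor signalling, was at 81.0 and 451 CPM in T cells, at 107 and 931 in B cells and at 32.6 and 405 in mature DCs. The smallest difference in T cells was that of *Jun*, at 316 and 336 CPM (0.09). The list moved further in some other classes, with 11 of 14 past 2-fold in CAFs (5.51%, median 2.18), 10 of 14 in tumor and biliary cells (6.33%, 1.77), 9 of 14 in monocytes and macrophages (5.47%, 1.36) and 8 of 14 in cDC1s (6.97%, 1.13). In neutrophils it was split, with 7 genes higher and 7 lower and a median of 0.23 against −0.37. There 3 were over 2-fold higher (4.49%) and 2 over 2-fold lower (15.8%). The part of this shift in the *Ccr7* and *Ccl22* results, and in those of *Ackr2*, *Ackr4*, *Ccl1* and *Ccl8*, was not tested.

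Genes of DC maturation showed no shift as a list in the mature DCs, where *Ccr7* and *Ccl22* differed. That class was gated on mature DC markers such as *Fscn1* and *Il4i1*, with the same cut in both libraries. The gate itself may therefore narrow differences in this list. Of 14 listed, 2 were past 2-fold (6.64% of measured genes), *Cd80* at 116 and 300.3 CPM (1.37, 0.79 to 1.99) and *Cd274*, which encodes PD-L1, at 224 and 490 (1.13, 0.70 to 1.57), with a list median of −0.02 against −0.07 over all measured genes. *Relb* was at 800.0 and 761 CPM, *Il12b* at 659 and 548 (−0.27, −0.57 to 0.04) and *Birc3* at 507 and 262 (−0.95). In cDC2s, which had the largest *Ccr7* ratio of the DC classes, 3 of 13 were past 2-fold (3.80% of measured genes) with a list median of 0.41 against −0.21, namely *Cd83* at 106 and 705 CPM (2.74), *Cd274* at 36.9 and 154 (2.06) and *Cd80* at 49.8 and 131 (1.40), while *Il15* had the lowest ratio (−0.63, −1.92 to 0.51). The list also moved outside DCs, with 7 of 12 past 2-fold in tumor and biliary cells (6.33%, median 1.37). Monocytes and macrophages had 6 of 14 past 2-fold (5.47%, 0.80), and cDC1s 2 of 13 (6.97%, −0.13).

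The IL-4 and GM-CSF genes, which feed into *Ccl17*, showed no shift as a list in mature DCs. Of 8 measured, 0 were over 2-fold higher and *Il13ra1*, a receptor chain for IL-13, was lower (22 and 13 UMIs, −1.07), against 8.07% of measured genes in that direction, and the list median was −0.09, with *Il4ra* highest at 130 and 248 CPM (0.93). In cDC2s, none of 8 was past 2-fold, with *Il4ra* at 105 and 140 CPM (0.42), *Irf4*, a factor of cDC2 identity, at 53.9 and 94.2 (0.80), *Stat6* at 118 and 112 (−0.08) and *Csf2rb2*, a GM-CSF receptor chain, at 71.0 and 38.8 (−0.87). The cytokine *Il4* itself was measured in T cells, at 27.6 and 17.0 CPM (−0.70, −0.94 to −0.46), and *Irf4* was the single one of 10 measured genes past 2-fold there (3.55% of measured genes were higher), at 17.3 and 38.3 (1.15).

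Tregs were the T cell subset with the highest *Ccr8* and *Ccr4* levels. In them *Ctla4* was the single listed gene of 12 past 2-fold (4.83% of measured genes), at 559 and 1856 CPM (1.73, 1.61 to 1.85). *Icos* was at 263 and 525 (1.00), *Foxp3*, which defined the cells, at 547 and 485, and *Il1rl1* lowest at 34.7 and 25.1 (−0.47). The list median was 0.54 against −0.09 over all measured genes. The ligands of CCR8 differed by class. In monocytes and macrophages, *Ccl8* was at 52.4 and 205 CPM (1.97, 1.89 to 2.05) and *Ccl1* at 0.689 and 1.99 (1.53, 0.76 to 2.32), so both were over 2-fold higher, as were 5.47% of measured genes. *Ccl1* was higher in T cells than there, at 110 CPM (103.5–116) and 87.7 (83.2–92.4), a ratio of −0.32 (−0.43 to −0.21). In CD4 T cells it was over 2-fold lower, at 320 and 70.6 CPM (−2.18, −2.39 to −1.97), as were 6.59% of measured genes, and in CD8 T cells it was at 50.8 and 99.6 (0.97, 0.73 to 1.22). At least 1 CCR8 ligand was over 2-fold higher also in T cells as a whole, CD8 T cells, B cells, neutrophils, Kupffer cells and tumor cells. The share of measured genes there was 3.55% to 6.33%. In endothelial cells the 1 measured ligand was over 2-fold lower (8.97%). The lymphotoxin genes, which signal to *Ccl19* and *Ccl21a* stroma, were lower in T cells in 2 of 6 cases past 2-fold (8.83% of measured genes), *Lta* at 45.4 and 18.4 CPM (−1.30) and *Tnfsf14* at 33.5 and 15.5 (−1.11), with *Ltb* at 744 and 466 (−0.67) and *Tnfrsf11a* highest (0.08). The list median was −0.49 against −0.20 over all measured genes. Of 8 measured genes of other homing routes in T cells, *Ccr6* was over 2-fold lower (background 8.83%), at 28.5 and 9.81 CPM (−1.54), and *Cxcl13* over 2-fold higher (background 3.55%), at 3.55 and 7.76 (1.13).

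Rich cells held much of the ligand totals. The 10% of positive cells with most UMIs held 82.6% and 92.4% of *Ccl21a*, 48.7% and 60.8% of *Ccl22* and 47.6% and 55.5% of *Ccl19*, but 41.4% and 40.6% of *Ccr7*. For *Ccr4* and *Ccr8* the share lay between 17.8% and 21.8%. Positive cells had a median of 1 UMI for *Ccr4* and *Ccr8*, but also for *Ccl22*, *Ccl19* and *Ccl21a*. *Ccr4* and *Ccr8* lacked rich cells, and no cell held more than 3 UMIs of *Ccr4*. Whether richer cells of either gene would appear at greater depth was not tested. The most alike profiles, over the 14 classes that held 50 cells or more in each library and as Pearson correlations of log2(CPM + 5) over 13840 genes, were those of *Efcab11* (0.932), *Apol7c* (0.930) and *Etv3* (0.924) for *Ccl22* and of *Htr7* and *Nectin1* (both 0.925) for *Ccl17*. They were *Il23r* (0.983) for *Ccr8*, *Trbv13-2* (0.990) for *Ccr4*, *Mif4gd* (0.934) for *Ccr7* and *Olfr558* (0.988) for *Ccl19*. Lymphatic endothelial cells were not among these classes, so no profile is given for *Ccl21a*. *Apol7c* was itself a marker of the mature DC gate, so its correlation with *Ccl22* was partly set by the gate. The points share libraries and depth, and these values only describe.

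**Figure D5:**
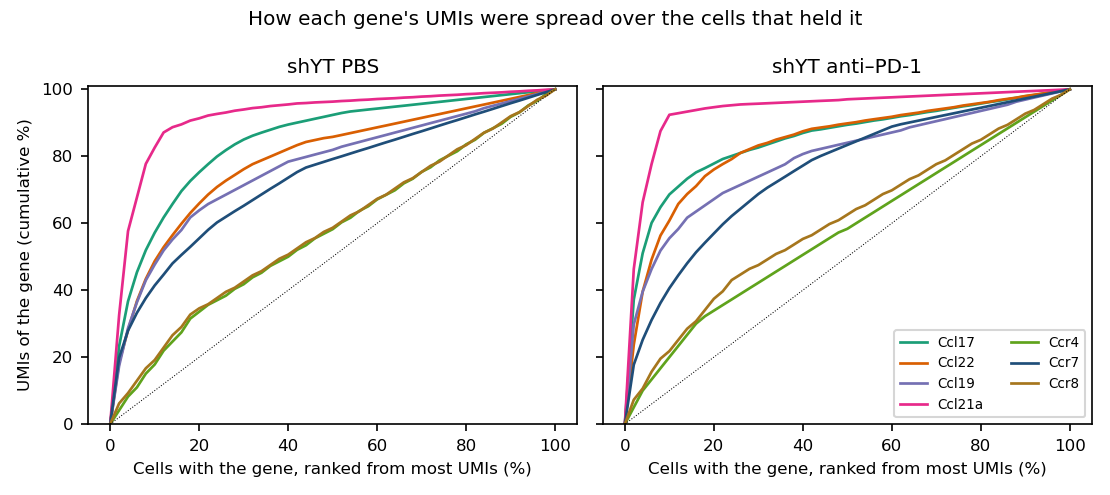
Cumulative share of the UMIs of each gene (y axis, %) over the cells that held it, ranked from most UMIs (x axis, %), for shYT PBS (left) and shYT anti–PD-1 (right). The dotted line is an even spread, near which *Ccr4* and *Ccr8* run, while *Ccl21a* reaches 82.6% and 92.4% within the first 10% of its cells.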

How the data were processed

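Single-cell RNA-Seq was analyzed in 2 libraries of tumor-bearing liver, shYT PBS and shYT anti–PD-1, 1 per group. The deposited values are raw UMI counts per gene and barcode, which the authors made with the Singleron software against mm10. The annotation, strand handling and software version are not given in the sources used here, and the submitters' processing notes name Seurat 4.3. The study's integration was not repeated.

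Cells with 500 to 5000 genes and up to 10% of UMIs from mitochondrial genes were kept. A cell's score for a class was the mean over its markers of log(1 + UMIs per 10000), each divided by the 0.9 quantile of its positive cells and capped at 1. The best class needed a score of 0.25, 2 detected markers and a lead of 0.05. T cells were split by UMIs of *Foxp3*, *Trdc*, *Cd8a* or *Cd8b1*, and *Cd4*. No doublet caller was run, and cells passing for 2 classes were left out in an alternative. Where a symbol had several entries, the one listed first was used. Sums over each class of a library were given with exact Poisson, binomial and conditional 95% intervals (Python 3.11.15, numpy 2.4.6, scipy 1.17.1, pandas 2.3.3). Only the conditional interval was tried on simulated data. Those were independent Poisson counts over whole libraries, so UMIs clustered in rich cells were not covered. A count of 0 allowed up to 3 counts. Thinning drew 1000 UMIs per cell. Alternatives were other cell limits, median-ratio scaling, a pseudocount, a stricter gate, thinning and XY-marked cells. A gate without the lead and leaving out the cell with most UMIs were added after seeing the data. The genes named were the 7 members, the genes of 10 lists and the 3 genes with the most alike profile. Members and lists were chosen with earlier results of these data known. Coordinates are from GENCODE vM21 (GRCm38) and promoter windows from RefSeq (GRCm38.p6). Not every gene of the recirculation list is reported here.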

Additional observations from a re-analysis of the deposited data

Results flagged for a closer look

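Among the barcodes outside the cell limits, 3866 with PBS and 3091 with anti–PD-1, which the comparisons did not use, 3 members were higher with anti–PD-1 beyond counting error. *Ccr7* was at 26.15 CPM against 3.754 with PBS, *Ccl19* at 15.22 against 3.613 and *Ccl22* at 1.124 against 0.3988. *Ccl21a* went the other way there, at 0.432 CPM (10 UMIs) against 24.2 (1032 UMIs).

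*Ccl22* had opposite directions in 2 DC classes, with a log2 ratio of 1.09 in mature DCs and −1.34 in cDC1s. In PBS cDC1s 1 cell held 51 of 85 UMIs, and after thinning the cDC1 ratio was −0.37 (−2.42 to 1.60). *Ccl17* had opposite directions in Kupffer cells, at 0.80, and endothelial cells, at −4.09, where 1 PBS cell held all 85 UMIs. With 1 library per group these differences between classes were not tested.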

How the results depend on the processing

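No paired analysis was possible because each group is 1 library. Of 131 values recomputed under 11 alternatives, 84 stayed within the counting interval of the reported value. The log2 ratio over all cells kept its sign under every alternative for *Ccl22* and *Ccr7*, and that in the leading class did so for *Ccl22*, *Ccl21a*, *Ccr7*, *Ccr4* and *Ccr8*. The cause of a shift was not tested. In the leading class, with no upper limit on detected genes the log2 ratio was 0.87 for *Ccl19* and 2.52 for *Ccl21a*, and with up to 20% mitochondrial UMIs it was 3.02 for *Ccl21a*. Median-ratio scaling gave 0.47 for *Ccl17*, 3.06 for *Ccl21a* and 2.05 for *Ccr7*. A stricter gate gave 0.09 for *Ccl17* and 2.26 for *Ccl21a*, leaving out cells that passed for 2 classes gave 0.52 for *Ccl17* and 0.68 for *Ccl22*, and a gate without the lead gave 2.26 for *Ccl21a*. Thinning gave −0.16 for *Ccl17*, 0.84 for *Ccl22*, −1.03 for *Ccr4* and −0.49 for *Ccl19*. XY-marked cells gave 0.56 for *Ccl17*, 2.02 for *Ccl22*, −0.18 for *Ccl19* and 2.55 for *Ccr7*. Without the cell with most UMIs in each library, *Ccl17* was at −0.06 and *Ccl19* at −0.24. Over all cells the sign changed for *Ccl19* with no upper limit (0.42), for *Ccr4* (−0.62) and *Ccl21a* (0.10) after thinning, for *Ccr8* as well after thinning (−0.27), and for *Ccl17* (0.07) and *Ccl21a* (2.20) among XY-marked cells. *Ccl21a* in its leading class gave no value among XY-marked cells and without cells that passed for 2 classes. The sparse receptors and the 5 lymphatic endothelial cells limit what the depth can show.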
